A study of Saccharomyces cerevisiae and Saccharomyces paradoxus with 173 samples.

Results

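Covered here are 37 of the 6172 genes measured in this array series, all nuclear genes for subunits of the mitochondrial respiratory chain or the ATP synthase. They were taken by their standard Saccharomyces cerevisiae names, and all 37 were found in the table. The genes fall into complex II (4 genes), complex III (9), cytochrome c (2), complex IV (9), the NADH dehydrogenases (2) and the ATP synthase (11). Other measured genes of this kind, such as ATP18, ATP19, TIM11 and NDE2, lie outside the 37, so counts by complex do not cover whole complexes. The series followed 10 natural yeast strains, 9 of S. cerevisiae (YPS183, YPS2055, YPS2060, YPS2066, YPS2067, YPS2073, YPS2079, YPS3060 and YPS3137) and YPS3395 of S. paradoxus. The series title concerns shifts in the timing of gene expression between yeasts. Per the labels' protocols, cells were grown at 30 °C in synthetic dextrose minimal medium and arrested in late G1 with 4 μM of the mating pheromone alpha factor for about 75 min. The pheromone was then washed out and the cells were put into fresh minimal medium at 18 °C, where 15 to 18 samples per strain were taken from 0 to 345 min. Every sample was hybridised in 2 colours against the same reference, RNA of unsynchronised YPS183 cells grown at 30 °C in the rich medium YPD to an OD600 of 1.1. The ratio of a YPS183 sample therefore sets 1 strain against itself under other growth conditions, and the ratio of any other strain also sets that strain against YPS183.

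The respiratory chain passes electrons from NADH and succinate to oxygen and pumps protons across the inner mitochondrial membrane, and the ATP synthase uses that proton gradient to make ATP. Budding yeast has no proton-pumping complex I and feeds electrons from NADH through single-subunit dehydrogenases instead. From there electrons pass through ubiquinone to complex III, cytochrome c and complex IV, while complex II links the chain to the citric acid cycle. In S. cerevisiae glucose represses many of these genes, the activator Hap4 with Hap2, Hap3 and Hap5 induces them when glucose runs low, and Hap1 activates some of them in response to heme and oxygen.

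There was 1 culture per strain. Each p-value below is based on how far single time points lie from a smooth curve, or on the spread between strains, and none covers the spread between repeat cultures. The values are log ratios, treated here as log2, since no source used here gives the log base. A higher value likely means more RNA in the sample than in the reference. This rests on the pheromone-induced genes FIG1 and AGA1, which were lower at the late times than at the early ones by 0.74 and 1.79. The check was set for 3 genes, and the change of FUS1 is not given here. A ratio near 0 is a level close to that of the reference, and ratios of different genes do not rank their amounts of RNA. In bulk RNA, fewer cells that express a gene and less of its RNA per cell cannot be told apart. The 173 samples rest on 377 arrays, 1 to 5 per sample. The labels name array prints of 2005 or 2006 in 40 samples, of which 17 are of YPS2073, 9 of YPS3060, 9 of YPS3137 and 5 of YPS183. In YPS3060 and YPS3137 these samples are every other time of the course (0, 48, 87, 135, 176, 218, 251, 284 and 325 min). Those times are referred to as set A in all strains and the rest as set B. Over all genes, log ratios spread least in YPS183 (median SD per sample 0.51) and most in YPS2073 (1.06).

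Most respiratory genes stood lower in YPS183 than in the other S. cerevisiae strains. In YPS183 33 of the 37 genes had a mean within 0.5 of 0 over the 12 sampling times that all strains share, whereas 30 genes had a mean above 0 in all 8 other S. cerevisiae strains. Neither count was made over all genes, whose log ratios also spread least in YPS183. The median of the 37 strain means was 0.19 in YPS183. In the other S. cerevisiae strains it ran from 0.50 in YPS3060 to 1.32 in YPS2073. YPS183 had the lowest mean of the 9 S. cerevisiae strains for 26 of the 37 genes, against 15.3% of all genes, and the highest mean for 1 gene, COX5B, against 17.3%. By complex, YPS183 was lowest for 7 of 9 complex III genes, 8 of 9 complex IV genes, both NADH dehydrogenase genes, 8 of 11 ATP synthase genes, CYC1 but not CYC7, and none of the 4 complex II genes.

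**Figure D1:**
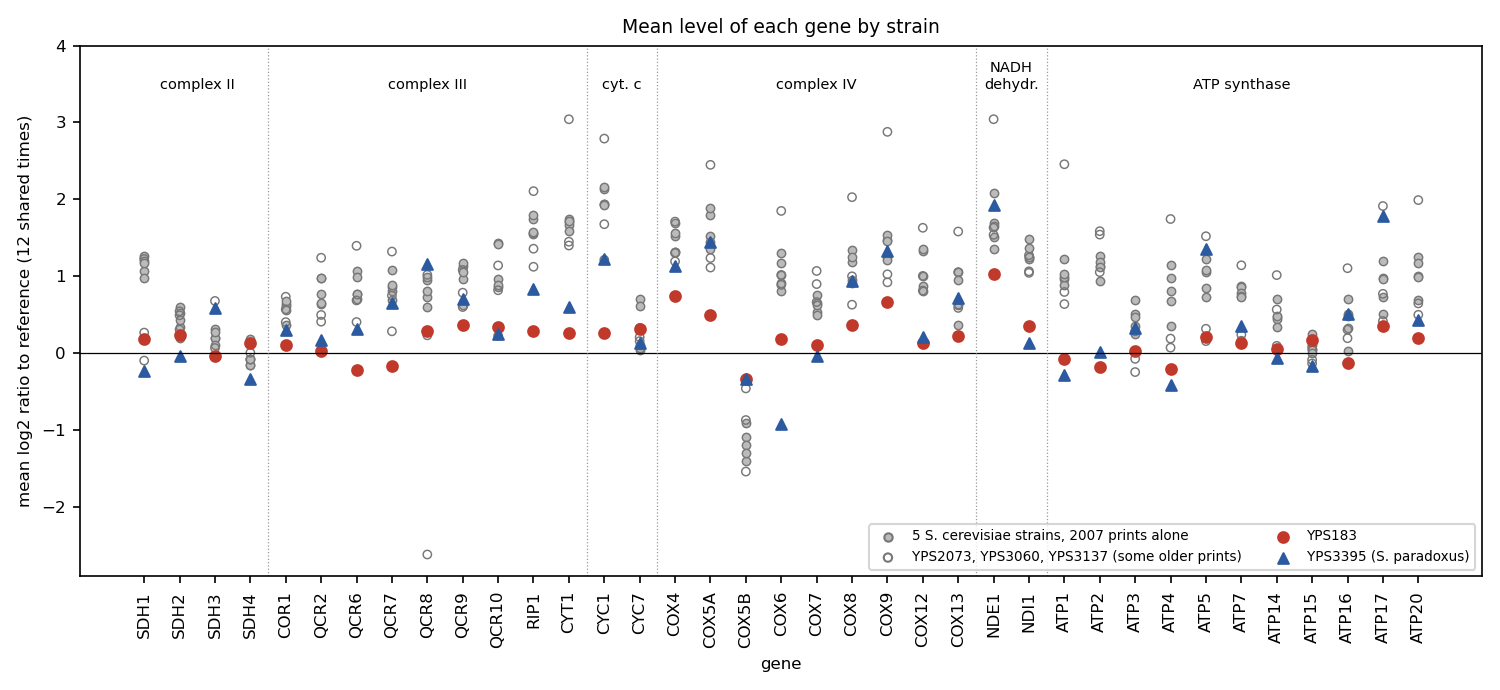
Mean log2 ratio to the reference over the 12 shared sampling times, for each of the 37 genes (horizontal axis, grouped by complex) and each of the 10 strains (points). YPS183 (red) is the lowest of the 9 S. cerevisiae strains (the others in grey) for 26 genes, and the QCR8 mean of YPS3137 stands apart at -2.62.

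In the limma fit of all time courses, 30 of the 37 genes were lower in YPS183 than the 8 other S. cerevisiae strains on average at an adjusted p under 0.05, against 15.9% of all genes. COX5B alone was higher, against 15.7% of all genes. The fitted differences of the 37 genes had a median of -0.76, beside 0.0066 over all genes. In 9 genes the difference was at least 1 in size and downward, against 0.778% of all genes. These 9 were CYC1, CYT1, RIP1, ATP2, ATP1, QCR6, COX5A, COX12 and QCR7. With all samples brought to 1 common distribution by quantile normalization the count was again 30, but the share of all genes was not computed there. YPS2073 was the 1 strain whose removal ended a call: SDH3 (-0.23) then missed the threshold, as it also did within either set and with 2007 prints alone. Among the genes lower in YPS183, SDH1, QCR10 and NDE1 missed the threshold within set A, and ATP14, ATP16 and ATP17 within set B. Level tests within a set fitted strain alone, without a curve over time, to fewer samples. A call lost there can thus stem from the model or the sample number as well as from the set. ATP5 missed it within set B, with samples of both dyes alone, and without the 5 YPS183 samples on older prints.

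**Figure D2:**
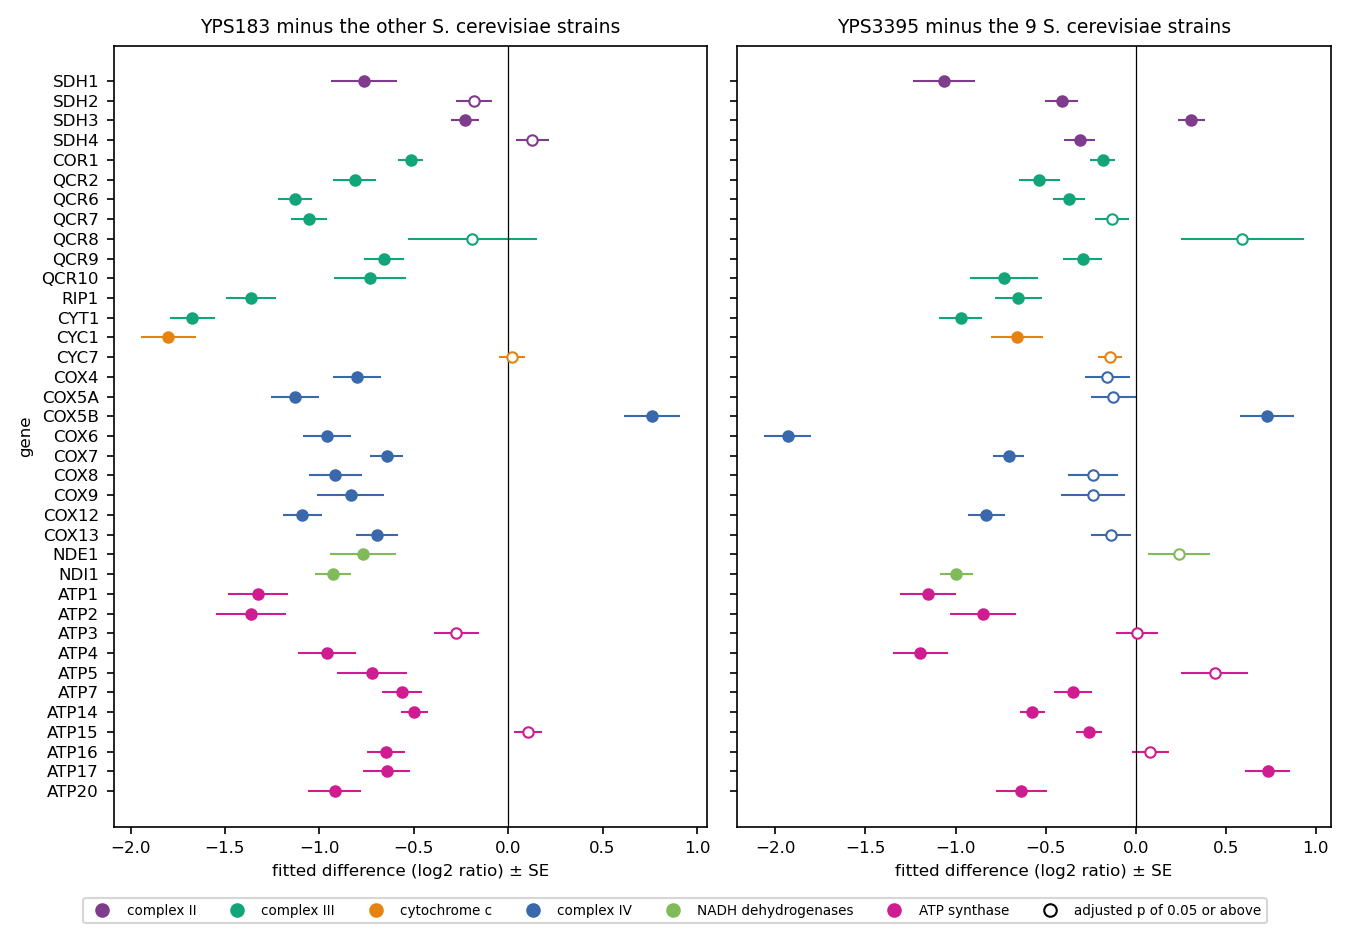
Fitted difference in log2 ratio with its SE for each of the 37 genes (vertical axis, coloured by complex), YPS183 against the 8 other S. cerevisiae strains on the left and YPS3395 against the 9 S. cerevisiae strains on the right. Filled points passed the limma threshold of 0.05. On the left 30 filled points lie below 0 and COX5B lies above it.

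Cytochrome c carries electrons between complexes III and IV, and its major form is encoded by CYC1. In YPS183 the CYC1 log2 ratio ran from -0.42 to 0.63 over 18 samples, with a median of 0.30. In the 8 other S. cerevisiae strains it ran from 0.11 to 4.12 over 137 samples, with a median of 2.09. Of those 137 samples 131 lay above the highest YPS183 sample, and in 6 strains every sample did. The fitted mean of CYC1 was 0.24 in YPS183 and 2.04 in the others, a difference of -1.80 ± 0.15 (SE, limma adjusted p = 2.35e-19), the largest of the 37. CYC7 encodes the minor form, which in S. cerevisiae is known for its higher expression when oxygen is low. Its ratio ran from -0.16 to 0.58 in YPS183 and from -0.39 to 1.58 in the others, and 23 of the 137 other samples lay above and 6 below the YPS183 range. The CYC7 difference of 0.02 ± 0.07 (SE) did not pass (limma adjusted p = 0.845), and its sign changed under several settings.

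The complex III genes shared most of this pattern. Of 9 genes 8 were lower in YPS183, with a median difference of -0.81 over the 9. CYT1 encodes cytochrome c1, which hands electrons to cytochrome c. Its ratio ran from -1.12 to 1.26 in YPS183, with a median of 0.20, and from 0.56 to 4.31 in the other strains, with a median of 1.79. The ranges overlapped, yet 111 of 137 samples lay above the highest YPS183 sample, and the difference was -1.67 ± 0.12 (SE, limma adjusted p = 2.15e-22). RIP1 encodes the Rieske iron-sulfur protein. Its ratio ran from -0.49 to 0.57 in YPS183, with a median of 0.28, and from 0.39 to 3.62 in the others, with a median of 1.70. Nearly all other samples, 134 of 137, were above the YPS183 range, and the difference was -1.36 ± 0.13 (SE). The small subunits QCR6 and QCR7 were lower by -1.13 ± 0.09 and -1.06 ± 0.10 (SE), and 4 strains lay wholly above YPS183 for QCR7. The core subunits QCR2 (-0.81) and COR1 (-0.52) and the small subunits QCR10 (-0.73) and QCR9 (-0.66) were also lower.

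QCR8, another small subunit of complex III, was the exception, at -0.19 ± 0.34 (SE, limma adjusted p = 0.708). YPS183 ran from -0.35 to 0.58, with a median of 0.30, and the other strains from -6.47 to 1.70, with a median of 0.83. YPS3137 held the lowest of these values, with a mean of -4.43 ± 2.14 (SD, n = 9) in set A and 1.01 ± 0.38 (SD, n = 7) in set B. Without YPS3137 the QCR8 difference was -0.54 and passed the threshold. Within set A alone it was 0.19 and within set B alone -0.54, neither past the threshold.

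In complex IV, which reduces oxygen to water, 8 of 9 genes were lower in YPS183 and the remaining one was higher. COX5A and COX5B encode alternative forms of the same subunit, and in S. cerevisiae COX5A is known as the form used with ample oxygen and COX5B as the form used when oxygen is scarce. The COX5A ratio ran from -0.30 to 1.37 in YPS183, with a median of 0.64, and from 0.45 to 3.31 in the other strains, with a median of 1.71. It was lower in YPS183 by -1.13 ± 0.13 (SE, limma adjusted p = 1.12e-12). The COX5B ratio ran from -0.94 to 0.23 in YPS183, with a median of -0.32, and from -4.30 to 0.20 in the others, with a median of -1.08. No other sample lay above the YPS183 range and 86 of 137 lay below it, and the difference was 0.76 ± 0.15 (SE, limma adjusted p = 1.74e-05). The pair thus moved in opposite directions between the same strains, and COX5B was the single gene of the 37 whose mean was below 0 in all 8 other S. cerevisiae strains.

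The subunits COX12 (-1.09), COX6 (-0.96), COX8 (-0.92), COX9 (-0.83), COX4 (-0.80) and COX13 (-0.69) were lower in YPS183 as well. The complex IV gene nearest to 0 was COX7, at -0.64 ± 0.09 (SE). Its ratio ran from -0.42 to 1.04 in YPS183, with a median of 0.01, and from -0.12 to 2.76 in the others, with a median of 0.72. Only 20 of 137 samples lay above the YPS183 range, so the COX7 groups overlapped for most samples although their fitted means differed.

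**Figure D3:**
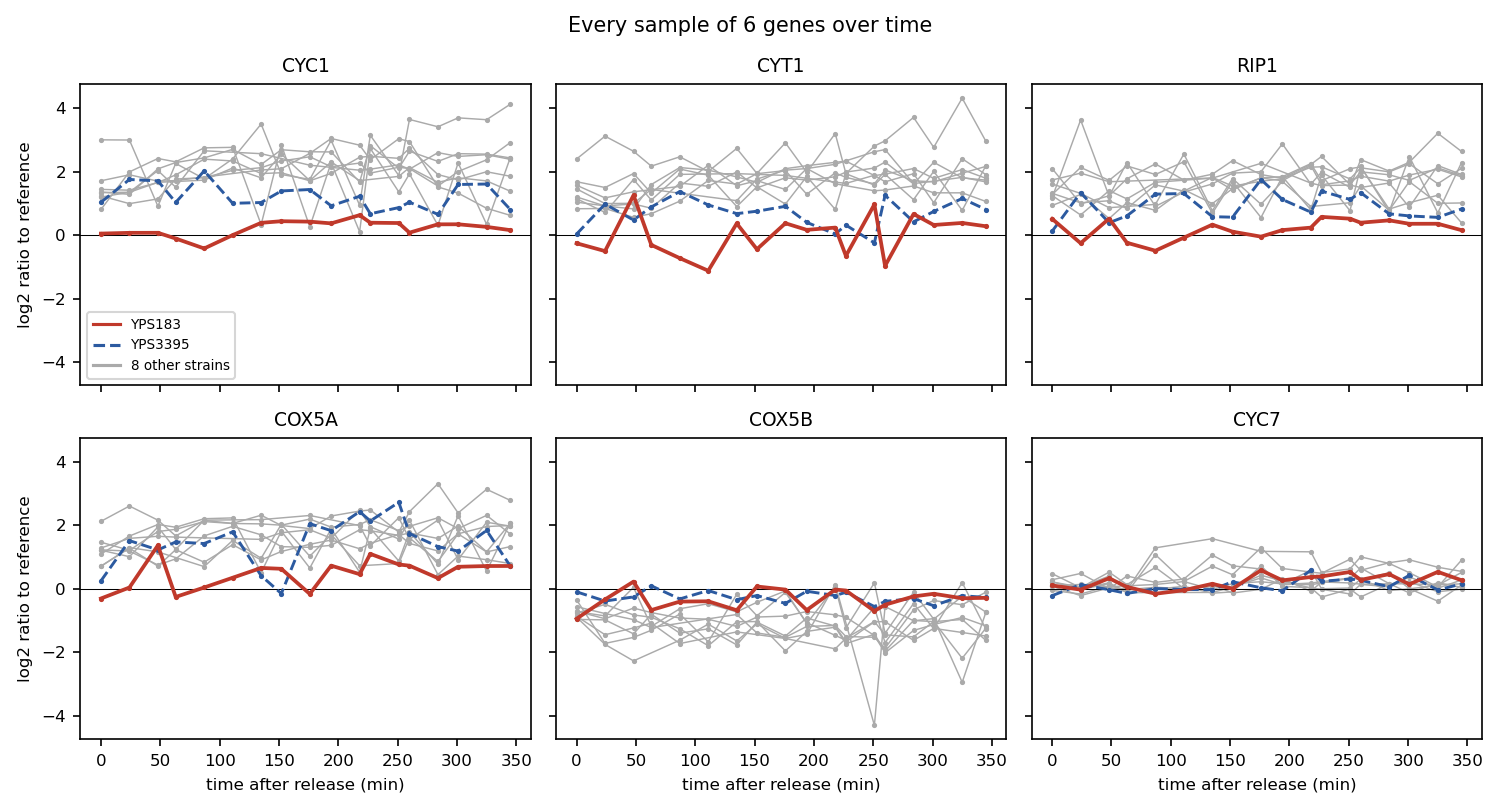
Log2 ratio to the reference in every sample against time after release in min, for CYC1, CYT1, RIP1, COX5A, COX5B and CYC7, with 1 line per strain. YPS183 (red) runs below the other S. cerevisiae strains for CYC1, CYT1, RIP1 and COX5A through most of the course, above most of them for COX5B, and among them for CYC7.

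Both NADH dehydrogenase genes were lower in YPS183. NDI1, which encodes the enzyme on the inner face of the membrane, differed by -0.93 ± 0.09 (SE). NDE1, which encodes one on the outer face, differed by -0.77 ± 0.17 (SE). The NDE1 ratio ran from -0.19 to 2.23 in YPS183, with a median of 1.18, and from 0.24 to 4.95 in the others, with a median of 1.84. NDE1 had the highest mean of the 37 genes in YPS183, 1.04, and 30 of 137 other samples lay above its YPS183 range.

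Of the 11 ATP synthase genes 9 were lower in YPS183, with a median difference of -0.65 over the 11. The alpha and beta subunits of the catalytic head differed most: ATP2 (beta) by -1.36 ± 0.19 and ATP1 (alpha) by -1.32 ± 0.16 (SE). ATP4, a subunit of the stalk that holds the catalytic head, was lower by -0.96, and 118 of 137 other samples lay above its YPS183 range. ATP20 (-0.92), ATP5 (-0.72), ATP17 (-0.64), ATP7 (-0.56) and ATP14 (-0.50) were lower too. Of the central stalk genes, ATP16 (delta) was lower by -0.65, while ATP3 (gamma) stood at -0.27 and ATP15 (epsilon) at 0.11, and neither of the latter passed the threshold (limma adjusted p = 0.0646 and 0.281). The ATP15 ratio ran from -0.29 to 0.59 in YPS183 and from -0.69 to 0.75 in the others, with medians of 0.12 and 0.10. Among the 137 other samples 2 lay above and 12 below the YPS183 range of ATP15.

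Complex II, succinate dehydrogenase, differed least, with a median difference of -0.21 and 2 of 4 genes lower. The flavoprotein gene SDH1 was lower by -0.76 ± 0.17 and the membrane anchor gene SDH3 by -0.23 ± 0.07 (SE). Only YPS3137 of the S. cerevisiae strains had a lower SDH1 mean than YPS183 (-0.095 against 0.19). In YPS3137 the SDH1 ratio was far lower in set A than in set B. The iron-sulfur subunit gene SDH2 stood at -0.18 and the anchor gene SDH4 at 0.13, neither past the threshold. The SDH4 ratio ran from -0.97 to 0.65 in YPS183, with a median of 0.09, and from -1.13 to 0.67 in the others, with a median of -0.08. Among the 137 other samples 1 lay above and 2 below the YPS183 range.

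The same comparison was made on 1 mean per strain, which sets YPS183 against the spread between the 8 other S. cerevisiae strains. No gene of the 37 passed limma's adjusted threshold (background 0.0162% lower and 0% higher). An unadjusted p under 0.05 was found for 17 of the 37, and for 638 of all 6172 genes. ATP2 came nearest (limma adjusted p = 0.104): its mean was -0.18 in YPS183 and 1.23 ± 0.23 (SD, n = 8) in the others. For CYC1 the means were 0.27 and 1.97 ± 0.45 (SD, n = 8). For 1 strain against 8 the smallest p an exact permutation test can give is 0.111. Without YPS2073, YPS3060 and YPS3137, which hold 35 samples on older prints, 18 of the 37 genes were lower and COX5B was higher with 5 other strains in the fit, and 174 genes of all were then lower. This last setting was chosen after seeing the data.

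Genes that work with the respiratory chain were lower in YPS183 in part. Of 5 carriers and porin genes 4 were lower: the ADP/ATP carriers PET9 (-1.35) and AAC1 (-0.96), the phosphate carrier MIR1 (-1.01) and the porin POR1 (-0.44). The carrier gene AAC3 was higher (0.24). Of 13 other subunits and entry dehydrogenases 6 were lower, among them the lactate dehydrogenases CYB2 (-0.85) and DLD1 (-0.72) and the ATP synthase inhibitor INH1 (-0.69), and 2 were higher. Of 13 citric acid cycle genes 6 were lower, led by ACO1 (-0.72), IDH1 (-0.61) and MDH1 (-0.61), and 1 was higher, with a list median of -0.22. Of 66 measured mitochondrial ribosome genes 39 were lower and 0 higher, with a median of -0.22. Of 42 assembly factors 12 were lower, such as COA1 (-0.92), and 1 was higher. In coenzyme Q and heme synthesis 4 of 17 were lower and 4 higher, among them HEM15, which encodes ferrochelatase (0.71). The regulators HAP4 (-0.76) and ROX1 (-0.41) were lower and HAP1 was higher (0.59), and in all 6 of 10 regulators were lower. Of 6 a cell markers 3 were higher and 1 was lower, and the alpha cell marker MF(ALPHA)1 stood at -0.06 without passing; their part in the result was not tested. All counts here stand against the 15.9% lower and 15.7% higher among all genes.

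YPS2073 stood at the opposite end. In this strain 29 of 37 genes were higher than in the other S. cerevisiae strains, against 16.5% of all genes, none was lower, against 16.4%, and the median difference was 0.61. In 10 genes the rise was at least 1, against 1.47% of all genes, with COX9 at 1.74 ± 0.18, ATP1 at 1.63 ± 0.16, NDE1 at 1.53 ± 0.17 and CYT1 at 1.45 ± 0.12 (SE). Array print cannot be told apart from strain here, because 17 of the 18 YPS2073 samples used some older prints. YPS183 is also 1 of the 8 strains in this comparison, and it is lower in most of these genes.

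YPS2055, YPS2060, YPS2066, YPS2067 and YPS2079 differed from the other S. cerevisiae strains in fewer of the genes. YPS2079 was higher in 9, against 5.15% of all genes, such as QCR10 (0.57) and CYC1 (0.45). YPS2060 was higher in 5, against 3.11%, such as ATP4 (0.50) and CYC7 (0.45). The YPS2060 count moved with the setting, to 14 with quantile normalization (3.86% of all genes), 16 within set A (5.15%) and 9 with sampling time as a block (5.09%). In each of YPS2055 and YPS2066 the single call was CYC7, lower by -0.28 and -0.21, against 4.8% and 7.55% of all genes. YPS2067 was higher in NDI1 (0.45), against 3.76%, and lower in COX13 (-0.45), ATP17 (-0.41) and ATP16 (-0.39), against 3.82%. Within set B neither YPS2079 nor YPS2060 was higher in any of the genes, where 0.13% and 0.194% of all genes were. CYC7 was called in 4 of these 5 strains: its mean over the samples of a strain was 0.68 in YPS2060 and 0.57 in YPS2079, and between 0.02 and 0.32 in the other 7 S. cerevisiae strains.

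In YPS3060 and YPS3137 the level depended on which sampling times were read. YPS3060 was lower in 6 genes, against 6.37% of all genes, but in 20 within set A (14% of all genes) and in 0 within set B (1.56%). YPS3137 was lower in 8, against 16.8%, and higher in 3, against 16%, but lower in 14 within set A (21.4% of all genes) and in 1 within set B (0.356%). With quantile normalization it was lower in 4 (10.9%). QCR8 alone was lower there by at least 1 (-2.69 ± 0.35, SE), against 1.56% of all genes. The median of the 37 differences between set A and set B means was -0.49 in YPS3060 and -0.45 in YPS3137, beside -0.0072 in YPS183. In YPS3060 and YPS3137 set A holds all samples on older prints. YPS2060 had no sample on older prints, and its median was 0.33, with 32 of 37 genes higher in set A. In the remaining strains the median ran from -0.093 in YPS2067 to 0.060 in YPS2079. These medians, the count in YPS2060 and the counts that follow were not computed over all genes. In YPS3060 8 genes were at least 1 apart, among them ATP5 (-0.21 ± 0.53 in set A, 1.55 ± 0.37 in set B; SD, n = 9 each) and CYC1 (0.96 ± 0.99 and 2.40 ± 0.33). In YPS3137 7 genes were, among them ATP5 again (-0.37 ± 0.36, n = 9, and 1.49 ± 0.45, n = 7; SD) and SDH1 (-0.67 ± 0.66 and 1.20 ± 0.51). NDE1 in YPS3137 went the other way, at 2.01 ± 0.40 in set A and 0.70 ± 0.27 in set B. Not every set A sample was on older prints alone. In YPS3060 the median of the 37 genes ran from 0.18 to 0.64 over the 6 set A samples with no 2007 array, was 0.49, 0.93 and 0.93 in those with some (0, 48 and 87 min), and ran from 0.54 to 1.13 in set B. In YPS3137 it ran from 0.42 to 0.57 over the 8 set A samples with no 2007 array, was 0.72 at 0 min, where 2 of 4 arrays were of 2007, and ran from 0.60 to 1.17 in set B. The part of array print in these differences was not tested.

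**Figure D4:**
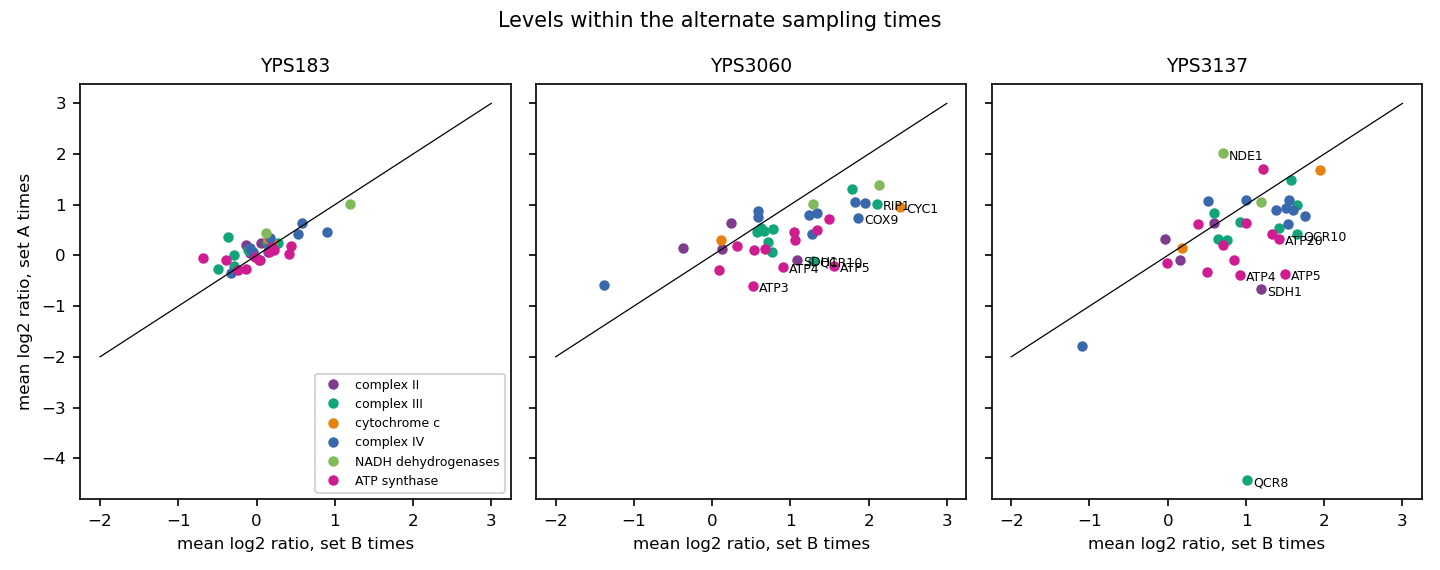
Mean log2 ratio over the set A times (vertical axis) against that over the set B times (horizontal axis) for each of the 37 genes in YPS183, YPS3060 and YPS3137, with a line of equal levels. Genes at least 1 apart are named: 0 in YPS183, 8 in YPS3060 and 7 in YPS3137.

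YPS3395, the S. paradoxus strain, was lower than the 9 S. cerevisiae strains in 22 of 37 genes, against 19.4% of all genes, and higher in 3, against 20.2%. The median difference was -0.31, beside 0.0092 over all genes. Probe sequences are not given, and how well the probes match RNA of S. paradoxus was not tested. In 4 genes the difference was at least 1 in size and downward, against 2.27% of all genes: COX6 (-1.93 ± 0.13), ATP4 (-1.19 ± 0.15), ATP1 (-1.15 ± 0.16) and SDH1 (-1.06 ± 0.17; all SE). Its mean lay below those of all 9 S. cerevisiae strains for 10 of the genes, against 15.7% of all genes, and above them all for 1, QCR8, against 17.1%. The 3 higher genes were ATP17 (0.73), COX5B (0.73) and SDH3 (0.31). COX6 encodes a complex IV subunit, and its ratio in YPS3395 ran from -1.27 to -0.08, with a median of -0.88 and all 18 samples below 0. In each S. cerevisiae strain the median was above 0, from 0.07 in YPS183 to 1.77 in YPS2073. COX6 was also the 1 gene of the 37 to pass on 1 mean per strain, at -0.93 against 1.02 ± 0.44 (SD, n = 9; limma adjusted p = 0.0453), where 1.49% of all genes were called lower and 0.94% higher.

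By complex, the genes lower in YPS3395 were 7 of 9 in complex III, led by CYT1 (-0.97) and QCR10 (-0.73), 7 of 11 in the ATP synthase and 3 of 4 in complex II. In complex IV there were 3 of 9, COX6, COX12 (-0.83) and COX7 (-0.71), while COX4, COX5A, COX8, COX9 and COX13 lay between -0.24 and -0.12 and did not pass. Of the NADH dehydrogenase genes NDI1 was lower (-0.996) and NDE1 stood at 0.24 without passing. Among citric acid cycle genes 8 of 13 were lower, led by ACO1 (-1.77) and CIT1 (-1.15), and 0 higher. Of 5 carriers and porin genes 3 were lower, led by PET9 (-1.47), and AAC3 was higher (0.62). Of 10 regulators 5 were lower, led by HAP4 (-1.02), and HAP1 was higher (0.46). In coenzyme Q and heme synthesis 4 of 17 were lower and 5 higher, among assembly factors 13 of 42 and 3, among mitochondrial ribosome genes 26 of 66 and 1, and among other subunits and entry dehydrogenases 3 of 13 and 1. Of 6 a cell markers 5 were higher and 0 lower, and their part in the result was not tested. These counts stand against the 19.4% lower and 20.2% higher among all genes. Within set B the count of lower respiratory genes was 12 (9.02% of all genes).

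Between 0 and 24 min after release no respiratory gene passed the limma threshold with strain as a block (background 2.45% higher and 1.72% lower), and 1 higher and 3 lower genes had an unadjusted p under 0.05. SDH2 came nearest, at -0.47 ± 0.12 (SE, n = 10 strains, lower in 8, limma adjusted p = 0.0503), followed by SDH4 at -0.49 ± 0.14 (lower in 8, adjusted p = 0.0742). NDI1 stood at -0.36, lower in 9 of 10 strains, and COX5A at 0.36, higher in 7. By strain, the median change of the 37 genes ran from -0.42 in YPS2060 to 0.48 in YPS2073. In every strain 0 min is in set A and 24 min in set B, so time and sampling set cannot be told apart here. In YPS2073, YPS3060 and YPS3137 the array prints also differed between these times. Leaving out YPS2073 gave 4 calls, and leaving out YPS2066 or YPS3395 gave 1, but the share of all genes was not computed for these counts. Outside the 37 genes, INH1, the inhibitor of the ATP synthase, fell by 0.43 ± 0.07 and GUT2, the mitochondrial glycerol-3-phosphate dehydrogenase, fell by 0.38 ± 0.08 (SE), both in 10 of 10 strains.

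Some respiratory genes rose over the course. The mean of 301, 325 and 345 min was compared with the mean of 0, 24 and 48 min in each strain, a comparison that shares its 0 and 24 min samples with the one above. Of the 37 genes 11 were higher at the late times, against 5.87% of all genes, and none was lower, against 6.45%. The median change was 0.30, beside -0.0070 over all genes, and 34 of the 37 genes were higher on average. Of the 4 complex II genes 3 rose: SDH1 by 0.63 ± 0.12, SDH2 by 0.52 ± 0.10 and SDH3 by 0.29 ± 0.07 (SE, n = 10 strains). In complex III CYT1 (0.52) and QCR2 (0.40) rose, in complex IV COX4 (0.68) and COX6 (0.59), in the ATP synthase ATP5 (0.70), ATP16 (0.53) and ATP4 (0.28), and of the NADH dehydrogenases NDI1 (0.48).

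ATP16, the delta subunit of the ATP synthase, had the lowest adjusted p, 0.0021. Its mean ratio was 0.15 early and 0.68 late, and its change ran from 0.33 in YPS2067 to 0.85 in YPS2073. Together with SDH1, SDH2 and NDI1 it rose in 10 of 10 strains, whereas 1.72% of all genes were higher in all 10. CYC1, which differed most between YPS183 and the other strains, stood at 0.44 ± 0.20 with a rise in 7 strains and did not pass (adjusted p = 0.186). Of 13 citric acid cycle genes 9 rose, led by MDH1 (0.89 ± 0.12) and ACO1 (0.68 ± 0.15; both SE), with a list median of 0.50.

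YPS2067 had the lowest median change of the 10 strains. Its median over the 37 genes was -0.17, with 13 of 37 higher, whereas the medians of the other 9 strains ran from 0.05 in YPS3060 to 0.64 in YPS2073. In YPS2067 the change was -0.84 for CYC1, -0.90 for RIP1 and -1.08 for QCR9, and 0.78 for SDH1, 0.99 for SDH2 and 0.63 for NDI1. Whether YPS2067 differs from the other strains was not tested. Without YPS2067 21 genes passed. Without YPS2055 or YPS2066 7 did, and without YPS2079 6 did. In 6 of the 11 genes (SDH1, SDH2, COX4, NDI1, ATP5 and ATP16) the call held whichever strain was left out. Within set B 10 genes passed (6.24% of all genes): 9 of the 11, without ATP4 and SDH3, and ATP14 (0.33). Within set A, with 325 min as the 1 late time, 0 did (0.0162% of all genes). All 11 kept their direction in both. The 5 strains with 2007 prints alone and both dyes gave 4 calls. For this count and those with a strain left out, the share of all genes was not computed.

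**Figure D5:**
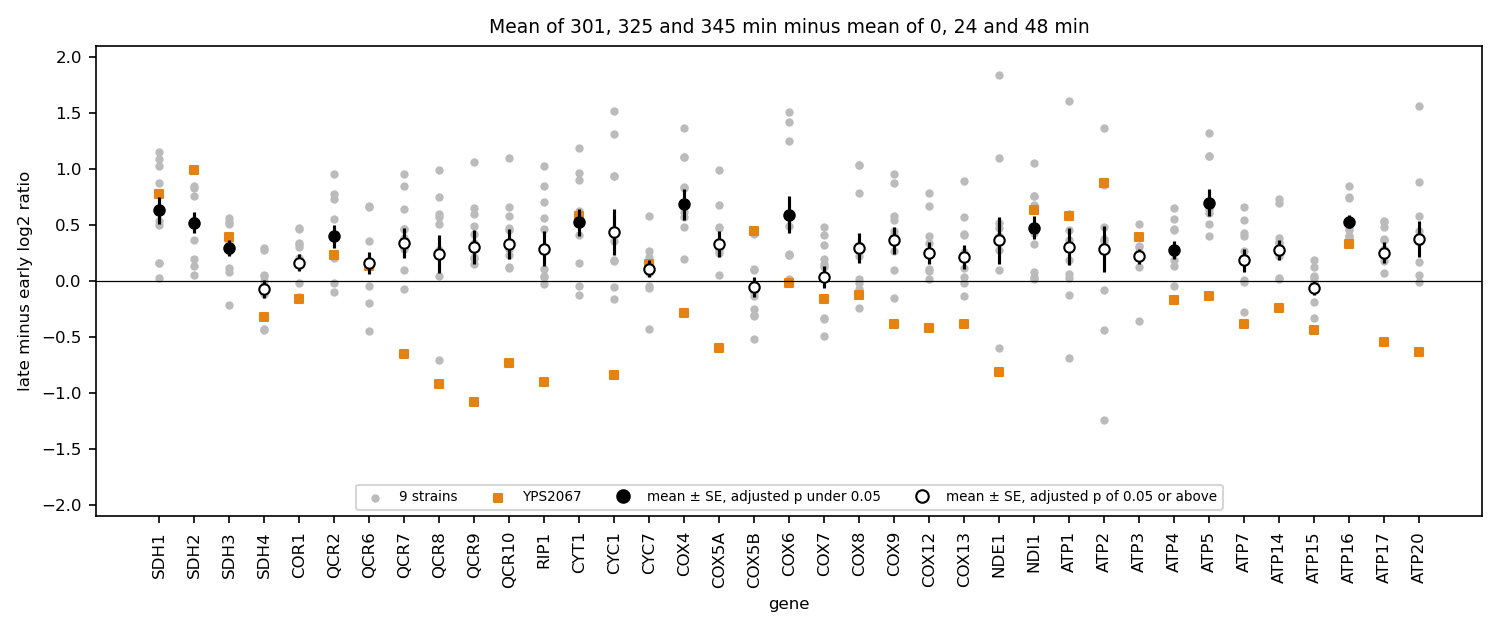
Change in log2 ratio from the mean of 0, 24 and 48 min to the mean of 301, 325 and 345 min for each of the 37 genes, with 1 grey point per strain, YPS2067 in orange and the mean with its SE over 10 strains in black. Filled black points passed the limma threshold of 0.05. All 11 lie above 0, and YPS2067 lies below 0 for most genes outside complex II.

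Within single strains, variation with time was called for a small number of respiratory genes, by a limma F test of the fitted curve with a fitted range of at least 1. The number was 6 in YPS2073 (5.9% of all genes), 4 in YPS3395 (5.12%), 3 in YPS2066 (6.84%), 3 in YPS2067 (8.3%), 2 in YPS2055 (3.45%), and 1 each in YPS2060 (0.146%) and YPS3060 (1.33%). It was 0 in YPS183 (3.05%), YPS2079 (0.518%) and YPS3137 (1.56%). NDI1 varied in YPS2055, YPS2067 and YPS2073, where its fitted curve peaked at 284, 251 and 301 min. CYC1 varied in YPS2067, by 2.20 with a peak at 251 min and a low at 345 min, and in YPS2073, by 2.31 with a low at 48 min and a peak at 345 min. Its latest time was thus the lowest point of the fitted curve in one strain and the highest in the other; this difference itself was not tested.

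COX4 varied in YPS2066 and YPS2073, in both with the fitted peak at 345 min, and ATP1 varied in YPS2073 by 2.35 with that peak time. In YPS3395 the genes for the beta and alpha ATP synthase subunits varied, ATP2 by 2.99 with a peak at 24 min and ATP1 by 2.70 with a peak at 152 min. In the same strain COX5A varied by 2.11 with a peak at 218 min and QCR2 by 1.96 with a peak at 48 min. CYC7 varied in YPS2060, by 1.61 with a peak at 135 min. The remaining calls were SDH2 in YPS2055, SDH3 and COX6 in YPS2066, QCR7 in YPS2067, COX7 and NDE1 in YPS2073 and COX8 in YPS3060. These 20 calls of variation with time over 10 strains became 57 with a term for sampling set, where the share of all genes called per strain ran from 1.1% to 14% instead of 0.146% to 8.3%. With 2007 prints alone 7 strains could be fitted, all but YPS2073, YPS3060 and YPS3137, and their 13 calls became 70, with shares of all genes from 2.4% to 17.1%. The counts by strain moved too. With quantile normalization the count in YPS183 went from 0 to 9, where 17.9% of all genes were called, and with 2007 prints alone to 8 (10.7%). Quantile normalization left 1 call in YPS2073 (2.06%), 1 in YPS2067 (7.68%) and 0 in YPS2066 (4.02%) and YPS2055 (2.8%). The named calls and peak times are thus those of the main fit, and most in these 4 strains did not hold there.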

How the data were processed

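The authors compared each sample with the common reference on spotted-oligo arrays, with both dye orientations in all samples but 8, which rest on 1 array each, per the labels. The deposited values, 1 column per sample, are log ratios treated here as log2. How arrays were combined and normalized, and the probe sequences, are not given in the sources used here. Near-identical genes may share probe signal, which was not tested. The normalized table (6172 genes, no missing value) was used, and 7 of its columns that match no sample were left out. Identifiers were named through the RefSeq table of assembly R64: 5554 matched directly and 192 after a hyphen was restored, while 426 kept their own name. Sample medians ran from -0.066 to 0.039. Of 6401 values of the 37 genes, 18 were beyond 4 in size. Array number limits the precision.

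Tests used limma 3.58.1 in R 4.3.3 on all genes, adjusted by the method of Benjamini and Hochberg at a threshold of 0.05. Levels came from 1 model in which each strain had its own level and its own natural spline over time (7 degrees of freedom): the fitted mean of a strain over the 12 shared times was set against the average of those of the other S. cerevisiae strains, so fitted and raw means differ slightly. Level tests within a set fitted strain alone, without splines, to the shared times of that set. Those with sampling time as a block fitted strain and sampling time, also without splines. Comparisons of times used strain as a block. The tests of the YPS183 level, of times and of variation with time in YPS2067 were run on simulated data with known changes. Those data held independent noise and no other spread between strains, array prints or sampling sets. Genes shown by their ranges over samples were the 3 largest YPS183 differences, the isoform pairs and the gene nearest to 0 in each complex. Genes of other lists are those with the largest differences past the threshold, up to 4 each. The 37 genes and all lists were chosen with earlier results of these data known. Promoter sequences were not analysed here. Python 3.11.15, numpy 2.4.6, pandas 2.3.3 and matplotlib 3.10.9 were used for the rest.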

Additional observations from a re-analysis of the deposited data

Results flagged for a closer look

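For each of the 37 genes, the mean level over the 8 S. cerevisiae strains other than YPS183, the change from 0 to 24 min over 10 strains and the change from early to late times over 10 strains were searched for 1 strain whose gap to the nearest other strain exceeds Dixon's limit for that number of strains. Of 111 such groups 13 held one, and chance gives about 1 in 20. YPS2073 was the strain in 7 of the 13. Its mean level stood above the others for CYT1 (3.04), NDE1 (3.04), COX9 (2.88) and ATP1 (2.46). Its change from 0 to 24 min stood above the others for COX9 (3.44), ATP2 (2.96) and QCR10 (1.76), and its array prints differed between these times. The mean of QCR8 in YPS3137, -2.62, stood below the other strains, the next being 0.23. At 24 min COX6 in YPS2060 (-0.87) and ATP20 in YPS2066 (-0.53) had the lowest changes from 0 min. From early to late times, QCR9 (-1.08) and ATP17 (-0.54) in YPS2067 and ATP3 in YPS3395 (-0.36) had the lowest changes.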

How the results depend on the processing

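Of the 31 genes called in YPS183, 23 held their direction and call in every setting but 1 mean per strain, and 9 of the 25 in YPS3395 did. Of the 11 genes higher at late times, 0 held the call in every setting, and SDH2 lost it only within set A. The count of genes lower in YPS183 was 0 on 1 mean per strain and 29 to 32 when each other strain was left out. It was 32 with sampling time as a replicate block, and 25 to 33 in the other settings. Among these settings the share of all genes was computed only for 1 mean per strain. Samples of different strains at 1 time come from separate cultures, and their deviations from the strain means had a median correlation of 0.08. In YPS3395 the count was 12 within set B, 1 on 1 mean per strain, 22 to 24 leaving out each strain and 23 with the replicate block. The share of all genes was not computed leaving out each strain. On 1 mean per strain, the YPS183 count of 0 became 2 with quantile normalization and 2 with values limited to 4 in size. For neither was the share of all genes computed. Without YPS2073, YPS3060 and YPS3137 that YPS183 count became 18. Genes higher in YPS2079 numbered 0 in set B. In YPS2060 they numbered 14 with quantile normalization, 16 in set A, 0 in set B and 9 with the replicate block. Genes lower in YPS3060 numbered 20 in set A and 0 in set B, and in YPS3137 4 with quantile normalization, 14 in set A and 1 in set B. At 24 min the count was 2 with quantile normalization, 1 with limited values, 1 with no replicate block, and 0 to 4 leaving out each strain. At late times it was 7 with quantile normalization, 1 with no replicate block, 4 in strains with 2007 prints and both dyes, 0 within set A, and 6 to 21 leaving out each strain. Among the settings for both comparisons of times, the share of all genes was computed only for those within a set. Calls of variation with time, 20 over 10 strains, numbered 57 with a set term. With 2007 prints alone they numbered 70 over the 7 strains that could be fitted, which had 13. The signs that changed were all in differences that missed the threshold. In YPS183, QCR8 was 0.19 in set A, and CYC7 was -0.076 in set B, -0.024 with the replicate block, -0.017 with 2007 prints alone, -0.060 without YPS183 samples on older prints, -0.00059 without YPS2073, YPS3060 and YPS3137, and -0.015, -0.00569 and -0.031 without YPS2055, YPS2066 and YPS2067. In YPS3395, QCR7 was 0.0056 with quantile normalization and CYC7 0.011 in set B. In set A COX5A was 0.11, COX8 0.050, COX9 0.15 and COX13 0.022, and with 2007 prints alone COX5A was 0.19 and COX13 0.13. ATP3 was -0.26 in set B, -0.037 with both dyes, -0.078 with 2007 prints alone, -0.024 without YPS183 and -0.036 without YPS3060, and ATP16 was -0.11 with both dyes. The cause of these changes was not tested. Settings for YPS2060, YPS2079, YPS3060 and YPS3137, those within a set for late times, those on 1 mean per strain and those without groups of strains or samples were chosen after seeing the data. With 1 culture per strain, no p-value covers the spread between cultures.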
